A study of Mus musculus with 16 samples.

Results

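With earlier results of these data known, 10 genes of prostaglandin and leukotriene synthesis and signaling were chosen by name for examination. They were the receptor genes Ptger2, Ptger4, Ptgir, Ptgdr2, and Cysltr1, the leukotriene synthesis genes Alox5 and Alox5ap, and the prostanoid synthesis genes Ptgs1, Ptgs2, and Hpgds. All 10 were found among the 51912 genes of the count table.

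Group 2 innate lymphoid cells (ILC2s) from mouse lung were profiled by bulk mRNA-Seq, with about 500 sorted cells per library. The mice were WT or Pac1-KO on a C57BL/6J background and 6 to 8 weeks old, and Pac1-KO mice lack PAC1, the nuclear dual-specificity phosphatase encoded by Dusp2, in all cells rather than in ILC2s alone. By the paper's culture methods, sorted lung ILC2s were first expanded in IL-2 and IL-7, which were removed before stimulation. The mRNA-Seq methods do not repeat this step. The ILC2s were stimulated in vitro for 4 hours under 4 treatments. All 4 treatments contained IL-7 at 100 ng/mL, a cytokine on which ILC2s depend, and it was the only stimulus in the group called IL-7. The group called IL-33 also received the alarmin IL-33 at 100 ng/mL. The groups called CGRP and NMU received IL-7, IL-33, and either the neuropeptide CGRP or the neuropeptide NMU at 500 ng/mL. Every genotype was sampled under every treatment in 2 libraries, so a treatment had 4 libraries and a genotype had 8. Nothing in the labels says whether the 2 libraries of a group came from separate mice or cultures, so the p-values measure the spread between libraries, which may be technical.

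Prostaglandins are made from arachidonic acid by the cyclooxygenases encoded by Ptgs1 and Ptgs2 and then by a dedicated synthase for each prostaglandin. Leukotrienes are made from the same fatty acid by 5-lipoxygenase (Alox5) with its helper protein FLAP (Alox5ap). ILC2s are known to respond to these lipids: prostaglandin D2, through the receptor CRTH2 (Ptgdr2), and cysteinyl leukotrienes, through CysLT1 (Cysltr1), activate them, whereas prostaglandin I2, through IP (Ptgir), and prostaglandin E2, through EP2 and EP4 (Ptger2 and Ptger4), restrain them. EP2, EP4, IP, and the CGRP receptor all signal through stimulatory G proteins and cAMP, whereas CysLT1 and the NMU receptor signal mainly through calcium.

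The libraries held 6764992 to 15963357 counts on genes. Dusp2, the targeted gene, had 0 counts in 8 of 8 Pac1-KO libraries but also in 6 of 8 WT libraries, so it could not check the genotype of most of them. Of 13 ILC2 marker genes, among them Gata3, Rora, and Il1rl1, 12 were above 3 counts in every library. Some libraries stood apart in genes of other cells. A list of 5 B cell genes summed to 270 and 282 CPM (counts scaled to library size) in the Pac1-KO CGRP libraries. It summed to 0.27 to 78.1 CPM in the other 14, and its gene Ms4a1 was at 75.0 to 84.4 CPM against at most 11.7 CPM. H2-Ab1, from a list of 6 dendritic cell genes, was at 155 to 161 CPM against at most 79.6 CPM. That list as a whole did not set these libraries apart, with 205 and 195 CPM there and 43.2 to 209 CPM in the other 14. The WT NMU libraries held Sftpc at 94.5 to 178 CPM, Scgb1a1 at 40.8 to 90.5 CPM, and Lyz2 at 27.9 to 112 CPM, genes of lung epithelium and myeloid cells that reached at most 0.191, 9.55, and 1.29 CPM elsewhere. The list of 6 epithelial genes that holds Sftpc and Scgb1a1 summed to 308 and 173 CPM there and to 11.1 to 83.3 CPM in the other 14. Its other genes varied: Sftpb was at 0 in all 16 libraries, Krt8 in 15, and Cdh1 in 12, while Epcam ran from 5.80 to 80.8 CPM over all libraries. The list of 12 macrophage and monocyte genes that holds Lyz2 summed to 708 and 560 CPM in the WT NMU libraries. It summed to 530 and 501 CPM in the Pac1-KO NMU libraries, 739 to 958 CPM with IL-7, 774 to 1085 CPM with IL-33, and 1018 to 1228 CPM with CGRP. Ccr2, at 499 to 1214 CPM, was its only gene above 3 counts in every library. A list of 6 NK cell and ILC1 genes summed to 118 to 239 CPM with IL-7 and to at most 5.29 CPM in the other treatments. Of these, Gzma reached 222 CPM, no other gene passed 15.1 CPM, and Tbx21 was at 0 in all 16 libraries. A list of 7 T cell genes summed to 247 to 345 CPM with IL-7 and to at most 176 CPM elsewhere. Of these, Cd3g reached 255 CPM and Cd3d 103 CPM, no other gene passed 8.97 CPM, and Cd8a was at 0 in all 16. A list of 10 mast cell and basophil genes was highest with CGRP, at 152 and 189 CPM in the WT and 80.0 and 83.9 CPM in the Pac1-KO libraries, against 26.6 to 80.3 CPM in the other 12. Most of that sum was Cpa3, the only one of the 10 above 3 counts in every library, and Tpsb2, Mcpt2, and Prss34 were at 0 in all 16. The part of these cells in the results below was not tested. Treatment differences printed for members that rest on the Pac1-KO CGRP or WT NMU libraries are also given without them. This was done where leaving them out ended a call, turned the sign, or moved the value by over 1.5 times. Genotype stayed in those fits, so the treatment difference left is that of the other genotype alone. A shift between the 2 values can come from genotype as well as from other cells, and these cannot be told apart. In bulk libraries, fewer cells that carry a transcript and less of it per cell cannot be told apart.

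The start regions of Ptger2, Ptger4, and Ptgs2 are shown because, among members with an entry in the sequence table, these genes differed most between CGRP and IL-33. RefSeq (GRCm38.p6) gave a promoter for 8 of the 10 genes, and none was listed for Cysltr1 or Alox5ap. Each stretch runs 5′ to 3′ on the strand of the gene, from 100 bases before the annotated start to 30 bases after it, at chr14:44988011-44988140 (plus strand) for Ptger2, chr15:5244158-5244287 (minus strand) for Ptger4, and chr1:150099931-150100060 (plus strand) for Ptgs2. The gene annotation used below starts Ptger2 at chr14:44988195, beyond the end of the Ptger2 stretch. Capitals mark matches to the motifs searched.
Ptger2: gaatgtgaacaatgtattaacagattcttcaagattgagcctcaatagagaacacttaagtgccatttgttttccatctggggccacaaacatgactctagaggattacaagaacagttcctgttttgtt
Ptger4: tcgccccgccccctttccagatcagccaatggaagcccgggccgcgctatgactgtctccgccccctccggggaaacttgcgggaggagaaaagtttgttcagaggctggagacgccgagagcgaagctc
Ptgs2: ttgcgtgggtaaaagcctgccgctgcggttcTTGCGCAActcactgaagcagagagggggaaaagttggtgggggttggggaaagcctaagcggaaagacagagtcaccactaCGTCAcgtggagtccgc
The windows searched were 300 bases long, on both strands. In Ptgs2, the C/EBP motif TTGCGNAA was matched from base −69, and it occurred in 0.798% of 32817 RefSeq promoters. The cAMP response element half-site TGACG was matched on the minus strand from base 14 after the start, where the plus strand reads CGTCA, and it occurred in 20.8% of promoters. The full element TGACGTCA (1.79% of promoters), the AP-1 motif TGANTCA (7.81%), the NF-κB consensus (8.46%), the TATA box TATAAA (13.6%), and the GATA motif AGATAA (11.2%) were found in none of the 8 members' windows. The full element contains the half-site. The GC content of the 300 bases was 37.7% for Ptger2, 67.0% for Ptger4, and 59.3% for Ptgs2, against a median of 52.7% over all promoters. These matches describe letters in a window and say nothing about binding.

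Levels between genes were compared per length, as RPKM (CPM divided by exon length in kilobases). Cysltr1 had the highest level of the 10, with 127 ± 42.7 RPKM (SD over 16 libraries), and stood first in each of the 4 treatments. Hpgds (18.7 ± 8.57 RPKM) and Ptgir (16.6 ± 6.64 RPKM) followed. Ptger2 (9.31 ± 5.42 RPKM), Ptgs2 (8.70 ± 6.51 RPKM), and Ptger4 (8.23 ± 4.20 RPKM) came next and differed from each other by less than their SD. Alox5 had 4.82 ± 3.64 RPKM and Alox5ap had 2.43 ± 4.03 RPKM, also within their SDs. Ptgs1 averaged 0.103 RPKM with 0 counts in 12 of 16 libraries, and Ptgdr2 averaged 0.00822 RPKM with 0 counts in 14 of 16. Of neighbours in this order, only Cysltr1 and Hpgds, and Ptgir and Ptger2, differed by more than the larger of their SDs, and the order of the middle genes differed between treatments: with CGRP, Ptger2 was eighth with 3.11 RPKM and Ptgs2 the third with 16.1 RPKM, whereas with IL-7 Ptger2 was the fourth with 9.46 RPKM and Ptgs2 the seventh with 2.01 RPKM.

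**Figure D1:**
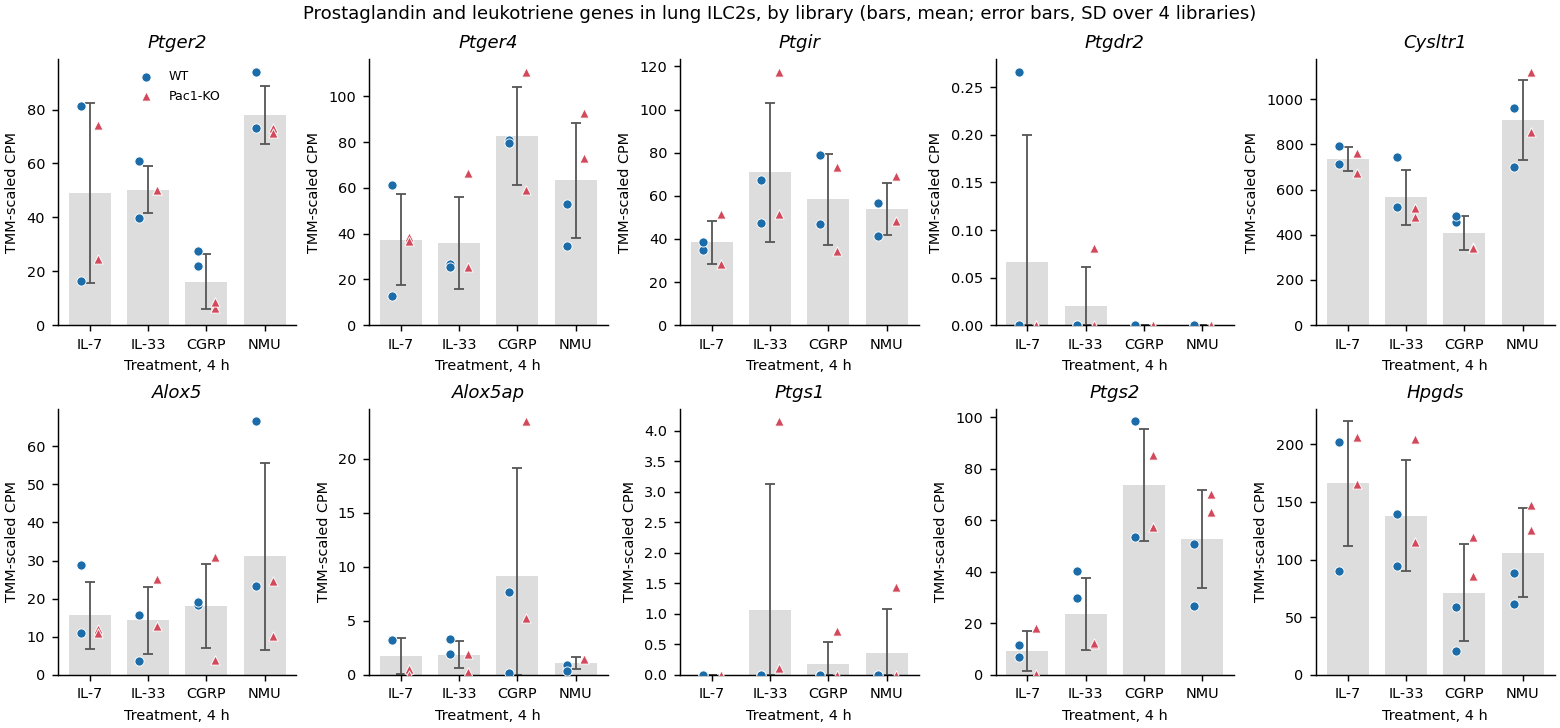
Level of each of the 10 genes as TMM-scaled CPM (vertical axes, each from 0) in every library by treatment (horizontal axes), with WT libraries as circles, Pac1-KO libraries as triangles, grey bars for the mean, and error bars for the SD of 4 libraries, drawn no lower than 0. The means of Ptger2 and Cysltr1 were lowest with CGRP and highest with NMU, and that of Ptgs2 was highest with CGRP.

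The comparisons asked how IL-33, CGRP, and NMU affected these genes in ILC2s and whether the absence of PAC1 altered that. Treatments were compared over both genotypes, 4 libraries against 4 with genotype as a covariate, by the quasi-likelihood test of edgeR, and p was adjusted over all genes tested (Benjamini-Hochberg). A gene was called at an adjusted p under 0.05 and a fold above 1.5. The CGRP and NMU comparisons against IL-33 share the 4 IL-33 libraries. CGRP against IL-33 called 230 of 13160 genes (1.75%), 202 of them higher (1.53%), and NMU against IL-33 called 13 of 12567 (0.103%). CGRP against NMU called 495 of 12834 genes (3.86%), 185 of them lower (1.44%), and IL-33 against IL-7 called 6 of 12980 (0.0462%). Among the members, 2 of the 8 tested were called lower in CGRP against NMU, Ptger2 and Cysltr1, and none was called in the other treatment comparisons. Without an adjustment, 5 of 8 members had a p under 0.05 in CGRP against IL-33, where 15.1% of all genes did, and 4 of 9 did in NMU against IL-33, where 7.73% of all genes did. The same held for 3 of 8 members in CGRP against NMU (19.4% of all genes) and for 1 of 8, Ptgir, in IL-33 against IL-7 (10.5%). The median log2 fold change of the members tested was 0.10 in CGRP against IL-33, 0.63 in NMU against IL-33, and −0.23 in CGRP against NMU, beside −0.089, −0.072, and 0.031 over all genes tested.

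**Figure D2:**
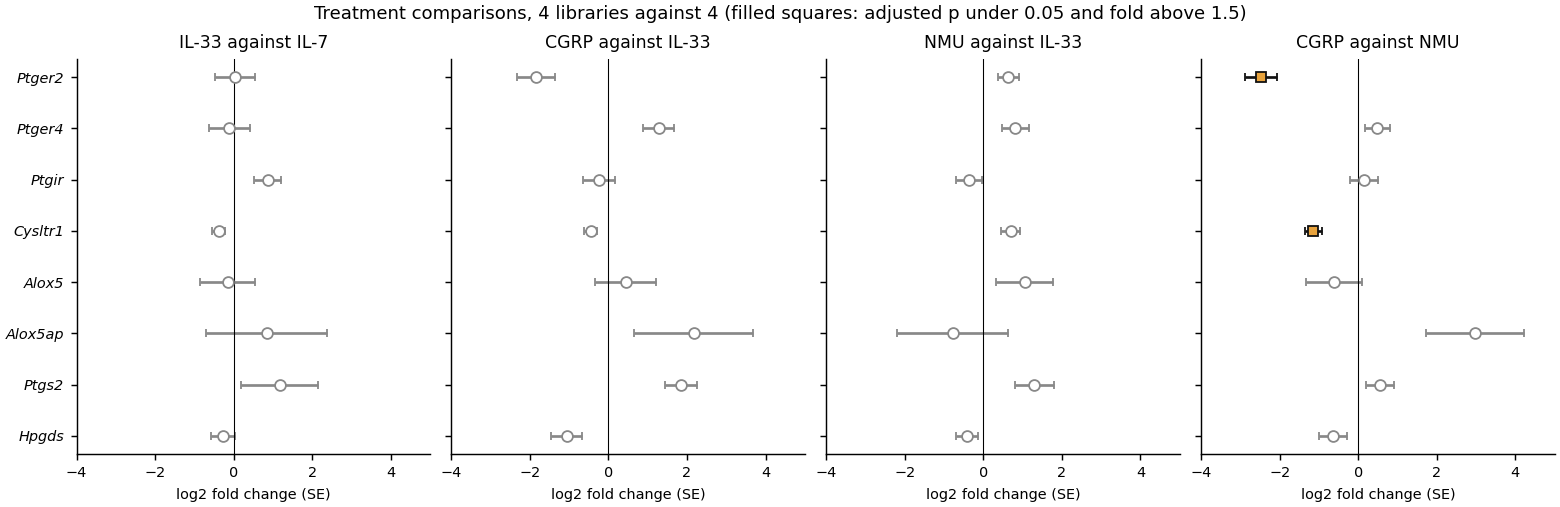
Log2 fold change with its standard error (horizontal axes) of the 8 members tested in all 4 treatment comparisons (1 panel each, 4 libraries against 4). Filled squares passed the threshold, which only Ptger2 and Cysltr1 did, both in CGRP against NMU.

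Ptger2 (ENSMUSG00000037759, chr14:44988195-45003820, plus strand, in GRCm38) encodes EP2, a prostaglandin E2 receptor that raises cAMP, and it was the member that differed most between CGRP and NMU among those called. With CGRP, Ptger2 had 27.6 and 21.8 CPM in the WT libraries and 6.38 and 8.76 CPM in the Pac1-KO libraries. With NMU, it had 73.1 and 94.0 CPM in WT and 73.3 and 71.3 CPM in Pac1-KO ILC2s. All 4 CGRP libraries were below all 4 NMU libraries, a separation seen in 7.52% of the genes tested. The means were 16.1 ± 10.2 and 77.9 ± 10.8 CPM (SD, n = 4), and Ptger2 fell by 2.47 on the log2 scale (SE 0.406, adjusted p = 0.0144 by edgeR's quasi-likelihood test). With IL-33 alone, Ptger2 had 61.0 and 39.9 CPM in WT and 50.3 and 50.1 CPM in Pac1-KO ILC2s, above every CGRP library and below every NMU library. The CGRP against IL-33 difference was −1.85 (SE 0.477, edgeR adjusted p = 0.113), with complete separation downward in 4.35% of genes tested. That difference passed the threshold without a filter on low counts (edgeR adjusted p = 0.0492) and with at least 10 counts required in every library (edgeR adjusted p = 0.0399), and without both Pac1-KO CGRP libraries it was −1.02 (edgeR adjusted p = 0.471). The NMU against IL-33 difference was 0.63 (SE 0.264, edgeR adjusted p = 0.603), with complete separation upward in 2.67% of genes. IL-7 alone gave a wide spread, 16.3 and 81.2 CPM in WT and 24.6 and 74.4 CPM in Pac1-KO ILC2s, overlapping each of the other treatments.

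The Ptger2 call did not rest on 1 library, since leaving out each in turn gave −2.76 to −2.23 with edgeR adjusted p of 0.00737 to 0.032. Without both Pac1-KO CGRP libraries, where the B cell genes were highest, the difference from NMU was −1.74 (edgeR adjusted p = 0.129), that of WT ILC2s alone. Without both WT NMU libraries, where the epithelial genes were highest, it was −3.25 (edgeR adjusted p = 0.0692), that of Pac1-KO ILC2s alone. With the replicate number as a block, the Ptger2 call was lost. Exons of Ptger2 overlap those of Gm17173 on the opposite strand, which had 1162 counts in the 16 libraries, and with no strand setting stated for the counting their reads cannot be told apart.

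Ptger4 (ENSMUSG00000039942, chr15:5206661-5244187, minus strand) encodes EP4, the other cAMP-raising prostaglandin E2 receptor of the set. With CGRP, Ptger4 had 81.0 and 79.4 CPM in WT and 58.8 and 111 CPM in Pac1-KO ILC2s. With IL-33, it had 26.5 and 25.2 CPM in WT and 25.4 and 66.3 CPM in Pac1-KO ILC2s. The treatments overlapped, since 1 Pac1-KO IL-33 library lay above 1 Pac1-KO CGRP library. The difference was 1.28 (SE 0.394, edgeR adjusted p = 0.179), opposite in sign to that of Ptger2. With NMU, Ptger4 had 52.8 and 34.5 CPM in WT and 92.6 and 73.1 CPM in Pac1-KO ILC2s, a difference from IL-33 of 0.81 (SE 0.346, edgeR adjusted p = 0.609). CGRP and NMU libraries overlapped (0.48, SE 0.323, edgeR adjusted p = 0.482), and that difference was 0.90 without both Pac1-KO CGRP libraries and 0.0364 without both WT NMU libraries. With IL-7, the values were 61.3 and 12.6 CPM in WT and 38.4 and 36.8 CPM in Pac1-KO ILC2s. Exons of Ptger4 overlap those of Ttc33 on the opposite strand, which had 6273 counts in all.

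Ptgir (ENSMUSG00000043017, chr7:16906490-16910905, plus strand) encodes the prostaglandin I2 receptor IP. Its lowest level was with IL-7, at 34.7 and 38.7 CPM in WT and 28.4 and 51.7 CPM in Pac1-KO ILC2s. With IL-33, Ptgir had 47.4 and 67.1 CPM in WT and 51.6 and 118 CPM in Pac1-KO ILC2s, and 1 IL-7 library lay within that range. The difference of 0.87 (SE 0.349) had an edgeR adjusted p of 0.447. With CGRP, the libraries ran from 34.5 to 78.9 CPM, and with NMU from 41.2 to 69.1 CPM, both within or close to the range with IL-33. The differences from IL-33 were −0.23 (SE 0.413) and −0.37 (SE 0.331), with edgeR adjusted p of 0.88 and 0.907. The first was 0.14 without both Pac1-KO CGRP libraries.

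Ptgdr2 (ENSMUSG00000034117, chr19:10937160-10942511, plus strand) encodes CRTH2, the prostaglandin D2 receptor by which ILC2s are often sorted in humans. It had 4 counts in WT IL-7 replicate 1, 1 count in Pac1-KO IL-33 replicate 2, and 0 counts in the other 14 libraries, and it was too low to be tested in any comparison. A count of 0 allows up to 3 counts, which is 0.188 to 0.443 CPM at these depths. Such limits cover counting error only, since PCR copies in amplified cDNA are not independent molecules. Its exons overlap those of Ccdc86 on the opposite strand, which had 2589 counts in all, so the few Ptgdr2 counts cannot be assigned.

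Cysltr1 (ENSMUSG00000052821, chrX:106574346-106603679, minus strand) encodes CysLT1, a receptor for cysteinyl leukotrienes. With CGRP, Cysltr1 had 458 and 485 CPM in WT and 345 and 342 CPM in Pac1-KO ILC2s. With NMU, it had 959 and 702 CPM in WT and 1121 and 854 CPM in Pac1-KO ILC2s. The highest CGRP library was below the lowest NMU library, a separation seen in 7.52% of the genes tested. The means were 408 ± 74.6 and 909 ± 177 CPM (SD, n = 4), and Cysltr1 fell by 1.14 on the log2 scale (SE 0.21, adjusted p = 0.0222 by edgeR's quasi-likelihood test). With IL-33, Cysltr1 had 524 and 745 CPM in WT and 477 and 518 CPM in Pac1-KO ILC2s, between the other 2 treatments but overlapping both. The difference from IL-33 was −0.46 with CGRP (SE 0.166, edgeR adjusted p = 0.249) and 0.69 with NMU (SE 0.248, edgeR adjusted p = 0.561). With IL-7, the 4 libraries were close together at 674 to 793 CPM, and IL-33 against IL-7 gave −0.38 (SE 0.171, edgeR adjusted p = 0.476). Replicates of a group differed least for this gene, by a median of 1.12-fold over the 8 groups.

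Leaving out 1 library at a time, the CGRP against NMU difference of Cysltr1 stayed between −1.30 and −1.02, but its edgeR adjusted p reached 0.0698 without Pac1-KO CGRP replicate 2. Without both Pac1-KO CGRP libraries, the difference was −0.80 (edgeR adjusted p = 0.245), and without both WT NMU libraries it was −1.52 (edgeR adjusted p = 0.0467). The first is the difference in WT ILC2s alone and the second that in Pac1-KO ILC2s alone. So of the members called in CGRP against NMU, 0 remained past the threshold in the first case and 1, Cysltr1, in the second. With the replicate number as a block, neither Ptger2 nor Cysltr1 passed it.

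Alox5 (ENSMUSG00000025701, chr6:116410077-116461178, minus strand), the gene of 5-lipoxygenase, varied widely between replicates, by a median of 2.55-fold over the 8 groups and by up to 7.73-fold. With CGRP, it had 18.3 and 19.1 CPM in WT and 30.9 and 3.995 CPM in Pac1-KO ILC2s. With NMU, it had 23.2 and 66.6 CPM in WT and 24.6 and 10.1 CPM in Pac1-KO ILC2s. The other libraries ran from 10.8 to 28.8 CPM with IL-7 and from 3.70 to 25.2 CPM with IL-33, and all 4 treatments overlapped. The differences were −0.15 for IL-33 against IL-7, 0.44 for CGRP against IL-33, 1.05 for NMU against IL-33, and −0.61 for CGRP against NMU, with SEs of 0.69 to 0.783 and edgeR adjusted p of 0.733 to 0.992. Without both Pac1-KO CGRP libraries, the second was 0.96 and the last −1.25, and without both WT NMU libraries, the third was −0.13 and the last 0.0079.

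Alox5ap (ENSMUSG00000060063, chr5:149264767-149288153, plus strand), which encodes the 5-lipoxygenase activating protein FLAP, was low outside the CGRP libraries. With CGRP, it had 2 and 70 counts in WT and 52 and 182 counts in Pac1-KO ILC2s, or 0.178, 7.67, 5.27, and 23.5 CPM. The libraries of the other treatments ran from 0 to 3.30 CPM, so 3 of 4 CGRP libraries were above all 12 others and 1 was within their range. The difference from NMU was 2.98 (SE 1.25, edgeR adjusted p = 0.239) and that from IL-33 was 2.17 (SE 1.52, edgeR adjusted p = 0.581). Without both Pac1-KO CGRP libraries, the difference from IL-33 was 0.59 (edgeR adjusted p = 0.961).

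Ptgs2 (ENSMUSG00000032487, chr1:150100031-150108227, plus strand) encodes the inducible cyclooxygenase COX-2. With CGRP, Ptgs2 had 53.5 and 98.5 CPM in WT and 85.5 and 57.5 CPM in Pac1-KO ILC2s. With IL-33, it had 29.7 and 40.3 CPM in WT and 12.1 and 12.4 CPM in Pac1-KO ILC2s. All 4 CGRP libraries were above all 4 IL-33 libraries, an upward separation seen in 6.56% of genes tested. The means were 73.7 ± 21.8 and 23.6 ± 13.8 CPM (SD, n = 4), and the difference of 1.85 (SE 0.415) had an edgeR adjusted p of 0.0712, short of the threshold. It passed without a filter on low counts (1.83, edgeR adjusted p = 0.00831) and with at least 10 counts required in every library (1.86, edgeR adjusted p = 0.0185), and without both Pac1-KO CGRP libraries it was 1.12 (edgeR adjusted p = 0.468). With NMU, Ptgs2 had 50.6 and 26.7 CPM in WT and 63.4 and 70.2 CPM in Pac1-KO ILC2s, a difference from IL-33 of 1.30 (SE 0.503, edgeR adjusted p = 0.581). Without both WT NMU libraries, that difference was 2.44 (edgeR adjusted p = 0.377). CGRP and NMU libraries overlapped (0.56, SE 0.355, edgeR adjusted p = 0.455), and that difference was 0.995 without both Pac1-KO CGRP libraries and 0.0968 without both WT NMU libraries. IL-7 alone gave the lowest mean, from 11.6 and 6.87 CPM in WT and 0.174 and 18.2 CPM in Pac1-KO ILC2s, where the lowest of these came from 2 counts. The start region of Ptgs2 shown above was the only one of the members with a match to a motif searched.

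Hpgds (ENSMUSG00000029919, chr6:65117293-65144908, minus strand) encodes hematopoietic prostaglandin D synthase, which makes prostaglandin D2. With CGRP, it had 20.8 and 58.6 CPM in WT and 85.7 and 120 CPM in Pac1-KO ILC2s. With IL-33, it had 139 and 94.1 CPM in WT and 205 and 115 CPM in Pac1-KO ILC2s. The treatments overlapped, through the Pac1-KO libraries. The difference was −1.07 (SE 0.393, edgeR adjusted p = 0.253), or −1.55 without both Pac1-KO CGRP libraries (edgeR adjusted p = 0.399). With NMU, the values were 61.2 and 88.7 CPM in WT and 126 and 148 CPM in Pac1-KO ILC2s, and with IL-7 they were 90.0 and 202 CPM in WT and 166 and 207 CPM in Pac1-KO ILC2s. NMU against IL-33 gave −0.42 (SE 0.278, edgeR adjusted p = 0.816), or −0.23 without both WT NMU libraries. CGRP against NMU gave −0.64 (SE 0.351, edgeR adjusted p = 0.37), which was −0.41 without both WT NMU libraries.

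Ptgs1 (ENSMUSG00000047250, chr2:36230426-36252272, plus strand) encodes the constitutive cyclooxygenase COX-1. It had 0 counts in all 8 WT libraries and in 4 of 8 Pac1-KO libraries. The other 4 Pac1-KO libraries had 2 and 51 counts with IL-33, 7 counts in replicate 1 with CGRP, and 16 counts in replicate 2 with NMU. Replicates of these groups differed widely, and edgeR's adjusted p for genotype across all libraries was 0.803. Platelet genes, a list of 5, summed to at most 8.27 CPM in any library, and none of the 5 was above 3 counts in all 16.

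Genotypes were compared across treatments, 8 Pac1-KO against 8 WT libraries with treatment as a covariate, and within each treatment, 2 against 2. Across treatments, 12 of 14979 genes were called (0.0801%), and none of the 9 members tested was among them. An unadjusted p under 0.05 was found for 2 of the 9, Hpgds and Ptgs1, and for 6.15% of all genes. Hpgds had the lowest p of the members. Its level was 146 ± 43.4 CPM in Pac1-KO and 94.4 ± 55.4 CPM in WT ILC2s (SD, n = 8), and the difference of 0.76 (SE 0.253) had an edgeR adjusted p of 0.796. The Pac1-KO mean was the higher in all 4 treatments, and the genotypes did not overlap with CGRP or NMU, where 39.0% and 36.3% of all genes tested did not. Without the 4 CGRP libraries the difference was 0.56, and without the 4 NMU libraries 0.73. The other 7 members above the lowest counts had differences of −0.45 (Ptger2) to 0.46 (Ptger4), with edgeR adjusted p of 0.939 to 1.

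**Figure D3:**
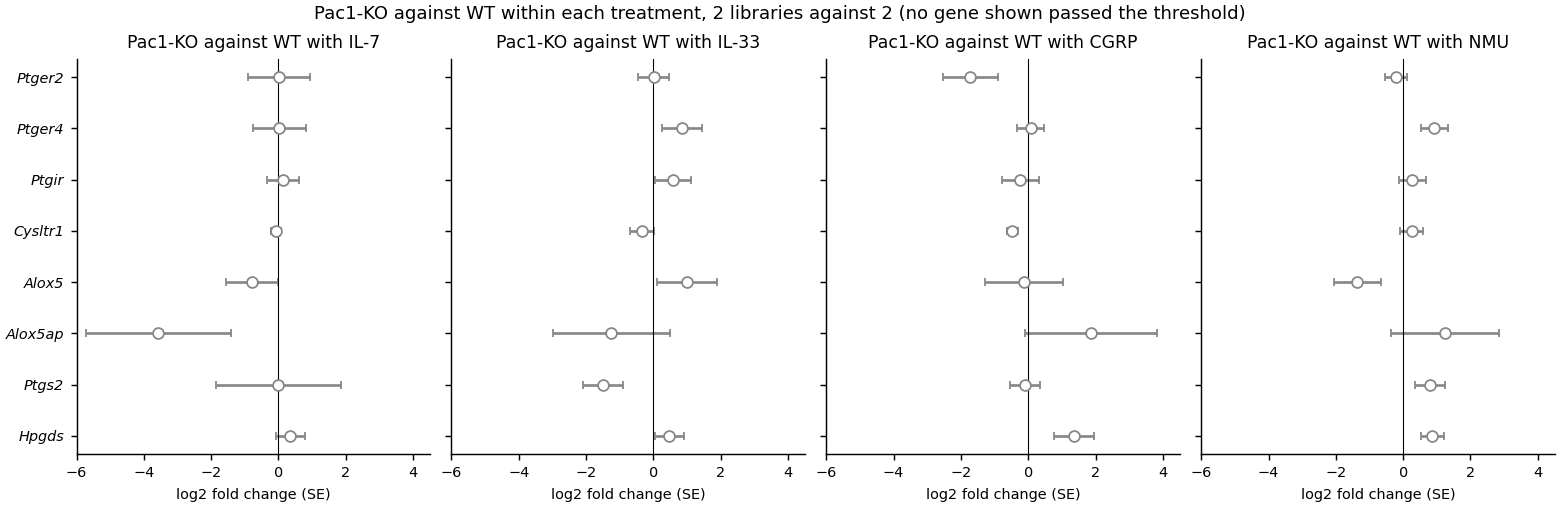
Log2 fold change of Pac1-KO against WT libraries with its standard error (horizontal axes) for the 8 members tested, in 1 panel per treatment (2 libraries against 2). None passed the threshold, and the standard errors of Alox5ap and, with IL-7, Ptgs2 were the widest.

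Within treatments, 1 of 10912 genes was called with IL-7 (0.00916%), 1 of 11448 with IL-33 (0.00874%), 0 of 10912 with CGRP (0.00%), and 3 of 10621 with NMU (0.0282%), with no member among them. With CGRP, edgeR found 822 genes at an unadjusted p under 0.05 (7.53%) and DESeq2 called 329 genes, none of them a member. In the IL-7, IL-33, and NMU groups, DESeq2 called 160, 112, and 93 genes, again with no member. Leaving out 1 library moved the edgeR count with IL-33 to 103 without WT IL-33 replicate 1 and with NMU to 77 without Pac1-KO NMU replicate 2. With 2 libraries a side, no overlap between the genotypes was seen for 34.0% of all genes with IL-7, 36.7% with IL-33, 39.0% with CGRP, and 36.3% with NMU. Ptgs2 with IL-33 was 12.2 ± 0.185 CPM in Pac1-KO and 35.0 ± 7.48 CPM in WT ILC2s (SD, 2 libraries each), a difference of −1.504 (SE 0.59, edgeR adjusted p = 0.922). Ptger2 with CGRP was 7.57 ± 1.68 CPM in Pac1-KO and 24.7 ± 4.08 CPM in WT ILC2s, a difference of −1.72 (SE 0.808, edgeR adjusted p = 0.789). Cysltr1 with CGRP was 344 ± 1.79 CPM in Pac1-KO and 472 ± 19.2 CPM in WT ILC2s, a difference of −0.47 (SE 0.16, edgeR adjusted p = 0.59). Hpgds was 103 ± 24.3 against 39.7 ± 26.7 CPM with CGRP (1.37, SE 0.601, edgeR adjusted p = 0.744) and 137 ± 15.2 against 75.0 ± 19.4 CPM with NMU (0.87, SE 0.346, edgeR adjusted p = 0.955). The Pac1-KO CGRP libraries on which 3 of these values rest are those with the highest B cell sums.

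Whether the treatments acted differently in the genotypes was tested as an interaction. No gene was called for IL-33, CGRP, or NMU (0.00% each) by edgeR, against 734 (5.65%), 719 (5.46%), and 801 (6.37%) genes at an unadjusted p under 0.05, while DESeq2 called 210, 241, and 104. The lowest p among the member terms was that of Ptgs2 with NMU. In WT ILC2s, Ptgs2 averaged 35.0 CPM with IL-33 and 38.7 CPM with NMU, and in Pac1-KO ILC2s it averaged 12.2 and 66.8 CPM. The term, the Pac1-KO response minus the WT response, was 2.28 (SE 0.662), with an edgeR adjusted p of 0.764 and a DESeq2 adjusted p of 0.0479. Terms of similar or larger size with NMU were −2.37 for Alox5 (SE 1.19, edgeR adjusted p = 0.773) and 2.46 for Alox5ap (SE 2.61, edgeR adjusted p = 0.895). For CGRP, the term was −1.72 for Ptger2 (SE 0.749) and 1.41 for Ptgs2 (SE 0.682), each with an edgeR adjusted p of 0.853. The CGRP level of Ptger2 was 0.489 times its IL-33 level in WT ILC2s and 0.151 times in Pac1-KO ILC2s.

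A wider list of 47 genes of the same pathways was examined by role, and none of them was called in any comparison, with 15 to 25 tested in each. Upstream of the members, the phospholipases that release arachidonic acid were low, with Pla2g12a at 3.42, Pla2g6 at 0.513, and Pla2g4a at 0.495 RPKM on average over 16 libraries. Among the prostanoid synthases, Ptges3, a prostaglandin E synthase that is also a co-chaperone in most cells, had 294 RPKM, Akr1b3 22.9 RPKM, and Cbr1 14.7 RPKM, while Ptgds, the other prostaglandin D synthase gene, had 0 counts in all 16 libraries. Akr1b3 had 113 ± 27.0 CPM with CGRP and 277 ± 108 CPM with IL-33 (SD, n = 4), without overlap and with an edgeR adjusted p of 0.101. Such a downward separation was seen in 4.35% of genes tested. Differences of the wider list were not refitted without the Pac1-KO CGRP libraries. Among the leukotriene genes, Mgst3 had 9.36 RPKM, Lta4h, which makes leukotriene B4, 8.19 RPKM, and Mgst2 3.28 RPKM. Ltc4s, the leukotriene C4 synthase, had 0 counts in 14 of 16 libraries.

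Mgst2, which can also conjugate leukotriene A4 with glutathione, had 38.3 and 18.0 CPM with CGRP in WT and 29.3 and 47.4 CPM in Pac1-KO ILC2s. With IL-33 it had 3.94 and 9.90 CPM in WT and 1.08 and 2.93 CPM in Pac1-KO ILC2s, below every CGRP library. Such an upward separation with CGRP was seen in 6.56% of genes tested. The difference was 3.15 (SE 0.774, edgeR adjusted p = 0.0961). With NMU, Mgst2 had 11 and 18 counts in WT and 0 counts in both Pac1-KO libraries, and CGRP against NMU had an edgeR adjusted p of 0.0543. Of the genes for inactivation and transport, Ptgr1 had 3.71 RPKM, Abcc1, an exporter of leukotriene C4, 2.71 RPKM, and Ptgr2 1.55 RPKM. Among the other receptors, Pparg, a nuclear receptor bound by a prostaglandin D2 product, had 101 RPKM, Ltb4r1, a leukotriene B4 receptor, 29.4 RPKM, and Cysltr2, the other cysteinyl leukotriene receptor, 22.9 RPKM. Cysltr2 was 91.5 ± 29.4 CPM with CGRP and 48.5 ± 6.63 CPM with NMU (SD, n = 4), a difference of 0.94 (SE 0.323, edgeR adjusted p = 0.16), opposite in sign to Cysltr1. Ptgdr, the other prostaglandin D2 receptor gene, and Ptger1 had 0 counts in all libraries. Ptgds, Ltc4s, Ptgdr, and Ptger1 were named after their values were seen. No rule fixed which comparisons of Akr1b3, Mgst2, and Cysltr2 are printed.

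**Figure D4:**
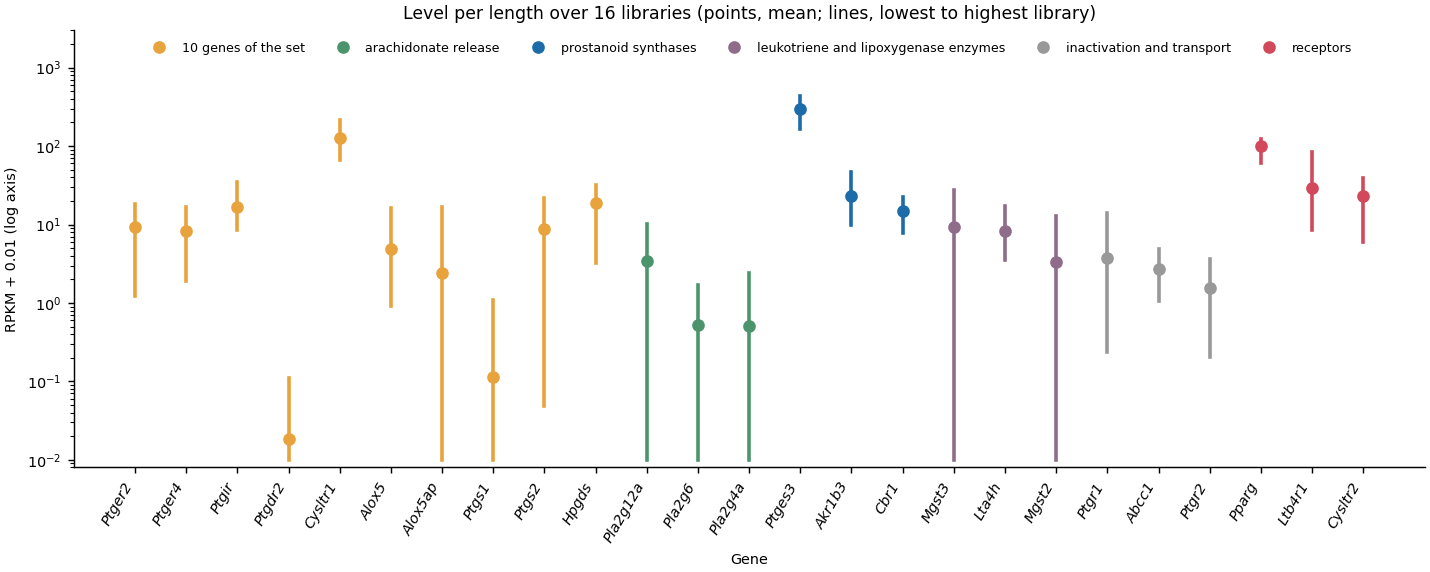
Level per length as RPKM plus 0.01 on a log axis for the 10 members and the 3 highest genes of each role in the wider list, as the mean (point) and the range (line) of 16 libraries. Cysltr1, at 127 RPKM, was the highest member, and Ptgdr2 and Ptgs1 were near the bottom of the axis.

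The genes whose pattern over the 16 libraries was most like that of each member were ranked by Pearson's r of log2 CPM among the 4877 genes that averaged 20 CPM or more. These values describe libraries that share treatments and depth and carry no test. For Cysltr1 they were Timm10 (r = 0.94), Lilr4b (0.93), and Gimap9 (0.92), and for Ptger2 Tgs1 (0.90), Smarce1 (0.88), and Uchl5 (0.88). For Ptgs2 they were Cd27 (0.87), Brap (0.86), and Cdkn2d (0.84), and for Hpgds Stxbp6 (0.83), Lgals3 (0.82), and Cat (0.82). For Ptger4 they were Eef1b2, Insig1, and Snhg1 (each 0.79), and for Ptgir Rnf44 (0.76), Runx3 (0.75), and Thrap3 (0.75). Between the members themselves, the highest r was that of Ptger2 and Cysltr1, the 2 genes called in CGRP against NMU, at 0.73. Ptger2 and Ptger4 had an r of −0.45, Hpgds and Ptgs2 one of −0.45, and Ptger4 and Hpgds one of −0.48.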

How the data were processed

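RNA from WT and Pac1-KO lung ILC2s was amplified as full-length cDNA and sequenced as paired 150-base reads, which the authors aligned to mm10 with HISAT2. The authors deposited raw counts per gene. The counting tool, annotation, strand setting, and handling of duplicates are not given in the sources used here. Gene symbols came from GENCODE M21, which matched 51633 of 51912 IDs. Promoters came from RefSeq.

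Depth ran from 6764992 to 15963357 counts per library, which sets the limit of 3 counts at 0.188 to 0.443 CPM. Counts were scaled by TMM and tested with edgeR 4.0.16 in R 4.3.3 (quasi-likelihood test, filterByExpr by group, Benjamini-Hochberg adjustment over all genes tested), with DESeq2 1.42.0 as an alternative. The tests of CGRP against IL-33 and of genotype across treatments and with CGRP were also run on simulated counts, with the outcome not given here. The coefficient of variation between replicates, common to all genes, was 0.685 to 1.08 over the comparisons. A difference that was not called may still exist. CPM and RPKM (union exon length) used 1 scale over 16 libraries, and a prior count of 2 was added before taking log2 for correlations. The members and lists were chosen with earlier results of these data known. Named genes were the 10 members, the 3 highest pathway genes of each role or any that passed the threshold, and the 3 genes most like each member with a mean of at least 20 CPM. Alternatives were another scaling, filter, tool, and set of libraries in the fit, a call by adjusted p alone, a replicate block, and each library left out. Leaving out the Pac1-KO CGRP, WT NMU, CGRP, or NMU libraries was chosen after seeing the data.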

Additional observations from a re-analysis of the deposited data

Results flagged for a closer look

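In 7 of the 36 groups of 4 libraries tested, 1 library lay apart from the other 3 by Dixon's criterion, which chance alone meets in about 1 of 20 groups (5%). For 3 of the 7 (Ptgdr2 with IL-7 and Ptgs1 with CGRP and with NMU), the other 3 libraries had 0 counts, so any count above 0 meets the criterion and the chance rate does not apply. Alox5 with IL-7 was 28.8 CPM in WT replicate 1 and 10.8 to 12.1 CPM in the others. Ptger2 with NMU was 94.0 CPM in WT replicate 2 and 71.3 to 73.3 CPM in the others, which places the library farther from the CGRP libraries rather than nearer. Ptger4 with IL-33 was 66.3 CPM in Pac1-KO replicate 2 and 25.2 to 26.5 CPM in the others. Ptgdr2 with IL-7 was 0.266 CPM in WT replicate 1, from 4 counts, and 0 in the others. Ptgs1 was 4.15 CPM in Pac1-KO IL-33 replicate 2 against at most 0.114 CPM in the other IL-33 libraries, 0.709 CPM in Pac1-KO CGRP replicate 1 against 0, and 1.44 CPM in Pac1-KO NMU replicate 2 against 0. Of 40 pairs of a member and a treatment comparison, none had every library of one genotype moving one way and every library of the other genotype the opposite way. For Ptgs1, with 0 counts in all 8 WT libraries, and Ptgdr2, with 0 counts in 14 of 16 libraries, this could not have occurred.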

How the results depend on the processing

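Over 880 values of 53 member results under the alternatives, 841 kept their direction and their side of the threshold, 24 changed sign, 9 passed the threshold only under the alternative, and 6 lost it. Calling by adjusted p alone reuses the main fit, so its values could not change sign. Only 2 results, Ptger2 and Cysltr1 in CGRP against NMU, were called in the main test and could lose the threshold. Each lost it under 3 of 17 alternatives. In CGRP against IL-33, no member was called in the main test, and 2 (Ptger2 and Ptgs2) were called with DESeq2, without a filter, or with at least 10 counts in every library. Leaving out each library gave 0 to 1, the 1 being Ptgs2 without WT CGRP replicate 1 (2.14, edgeR adjusted p = 0.0303). The adjusted p over all alternatives ran from 0.00326 to 0.471 for Ptger2 and from 0.00163 to 0.468 for Ptgs2. In CGRP against NMU, 2 members were called, against 0 without both Pac1-KO CGRP libraries, 1 without both WT NMU libraries, 1 to 2 with each library left out, and 3 with DESeq2, which added Alox5ap (adjusted p = 0.0335). Over all alternatives, the adjusted p ran from 1.34e-07 to 0.129 for Ptger2 and from 5.5e-05 to 0.245 for Cysltr1. In the genotype by NMU interaction, DESeq2 called 1 member (Ptgs2) where edgeR called 0.

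With the replicate number as a block, CGRP against NMU called 0 members, with edgeR adjusted p of 0.0567 for Ptger2 and 0.0714 for Cysltr1, and the counts over all genes were 80 in CGRP against IL-33 and 208 in CGRP against NMU. The block changed no other member's call. Deviations of same-numbered libraries correlated at −0.255 to 0.106 within a genotype (12 pairs of groups) and at −0.194 to 0.221 between genotypes (16 pairs). The highest were those between the genotypes with IL-33 (0.221) and with NMU (0.183). These weak correlations neither show nor exclude a pairing of libraries by number.

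The values that changed sign were as follows, none of them past the threshold in the main test. Ptger4 in IL-33 against IL-7 was 0.0176 with the replicate block. Ptgir in CGRP against IL-33 was 0.14 without both Pac1-KO CGRP libraries. Without both WT NMU libraries, Alox5 was −0.13 and Alox5ap 0.43 in NMU against IL-33, and Ptgir was −0.12 and Alox5 0.0079 in CGRP against NMU. Alox5 was 0.0213 across genotypes without the 4 NMU libraries. With each library left out, IL-33 against IL-7 ran from −0.26 to 0.62 for Ptger2, −0.52 to 0.58 for Ptger4, −0.53 to 0.36 for Alox5, −0.22 to 1.30 for Alox5ap, and −0.47 to 0.0188 for Hpgds. CGRP against IL-33 ran from −0.51 to 0.13 for Ptgir and −0.0947 to 0.85 for Alox5, CGRP against NMU from −0.0873 to 0.35 for Ptgir, NMU against IL-33 from −4.77 to 1.60 for Ptgs1, and the genotype difference of Alox5ap from −0.77 to 0.21.

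Over all genes, the counts called in CGRP against IL-33, CGRP against NMU, IL-33 against IL-7, NMU against IL-33, and genotype across treatments were 230, 495, 6, 13, and 12. They were 1241, 1932, 520, 310, and 142 with DESeq2, and 639, 1102, 201, 77, and 62 without a filter. With each library left out, they ran from 133 (without Pac1-KO IL-33 replicate 1) to 243, from 252 (without Pac1-KO NMU replicate 2) to 429, from 12 to 37 (without WT IL-33 replicate 2), from 15 to 38 (without WT NMU replicate 2), and from 10 to 16. Without both Pac1-KO CGRP libraries, the first and the second of these comparisons called 1 and 2 genes, with fewer libraries in the fit and the difference that of WT ILC2s alone. The cause of the other shifts was not tested. With 2 libraries a group and 500 cells a library, differences in Ptgdr2 and Ptgs1 were not detectable at this depth.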
